A study of Homo sapiens with 6 samples.

Results

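The genes described here are the human zinc finger genes whose symbol is ZNF followed only by digits. Every probe set of the array that the platform annotation assigned to a single gene with such a symbol was taken, which gave 278 probe sets and 212 genes of the 19064 probe sets and 11963 genes measured in all. Where a gene had several probe sets, the one with the highest mean over the 6 arrays stood for it. Of the 212 genes, 98 lay on chromosome 19 and 114 on other chromosomes, with 16 on chromosome 16 and 12 on chromosome 7. The rule uses the symbol and the mean level over all arrays, not the difference between the lines. The group itself was proposed with earlier results of these data known.

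The arrays compared 2 established human glioblastoma cell lines, T98G and U87MG, with 3 arrays each of total RNA from cells kept in the same serum-containing medium, and the labels name no treatment. The labels describe T98G as undergoing apoptosis after either of 2 inhibitors, of which bortezomib blocks the proteasome and G5 blocks ubiquitin isopeptidases, and as partly protected from the necrosis that G5 causes. U87MG is described as resisting apoptosis by both compounds and as succumbing to that necrosis. Each group is a single cell line, the labels do not say whether the arrays came from separate cultures, and p-values therefore measure only the spread between these arrays, which may be technical.

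Most ZNF genes encode proteins that read DNA through tandem C2H2 zinc fingers, each finger being held in shape by a zinc ion. A large share of them also carry a KRAB domain, which recruits the corepressor TRIM28 (KAP1) and, through it, the histone methyltransferase SETDB1 and the heterochromatin proteins of the CBX family. Such proteins silence retrotransposons and other targets, and the genes arose by repeated local duplication, so that they sit in dense clusters of related copies, above all on chromosome 19. Membership goes by symbol, and a few members are better known for other roles, such as ZNF185, which encodes a LIM domain protein bound to actin, and ZNF207, which encodes the mitotic spindle protein BuGZ. Finger and KRAB counts of the proteins were not analysed here.

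The promoters of 8 chromosome 19 members show how alike or unlike the starts of these genes are, and each was chosen for a result given further on. Each window runs from 250 bases before to 50 bases after a RefSeq start site, 300 bases in all, on build GRCh38.p14, 5′ to 3′ on the gene's own strand, with each CG dinucleotide in capitals. Where a gene has several windows, the one with the most CG is printed. ZNF91, which is known to repress SVA retrotransposons, has its window at chr19:23395422-23395721 on the minus strand with 11 CG, below the median of 26 over the 9562 genes tested that had a window.
ZNF91: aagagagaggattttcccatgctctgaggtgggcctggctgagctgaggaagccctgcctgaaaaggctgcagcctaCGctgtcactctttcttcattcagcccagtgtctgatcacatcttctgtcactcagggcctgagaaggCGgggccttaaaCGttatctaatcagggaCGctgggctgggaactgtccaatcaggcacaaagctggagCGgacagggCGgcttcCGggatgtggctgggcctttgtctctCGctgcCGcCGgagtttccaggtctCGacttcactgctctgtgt
ZNF83 (chr19:52690447-52690746, minus strand, 29 CG) and ZNF701 (chr19:52570037-52570336, plus strand, 26 CG) are shown as related copies of 1 cluster whose transcript differences between the lines were of very different size.
ZNF83: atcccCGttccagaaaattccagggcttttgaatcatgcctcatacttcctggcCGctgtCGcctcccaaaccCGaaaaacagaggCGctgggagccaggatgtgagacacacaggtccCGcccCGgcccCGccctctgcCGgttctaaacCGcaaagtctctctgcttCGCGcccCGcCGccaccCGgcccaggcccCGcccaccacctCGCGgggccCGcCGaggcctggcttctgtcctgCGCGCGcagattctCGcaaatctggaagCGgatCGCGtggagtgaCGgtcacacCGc
ZNF701: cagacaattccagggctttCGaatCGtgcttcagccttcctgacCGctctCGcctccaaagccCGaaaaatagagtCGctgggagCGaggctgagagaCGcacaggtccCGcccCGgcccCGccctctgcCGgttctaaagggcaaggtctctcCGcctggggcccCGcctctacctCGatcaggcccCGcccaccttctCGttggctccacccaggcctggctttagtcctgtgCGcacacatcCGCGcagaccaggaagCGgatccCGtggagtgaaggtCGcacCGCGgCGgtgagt
ZNF415 (chr19:53132861-53133160, minus strand, 17 CG), ZNF813 (chr19:53467483-53467782, plus strand, 25 CG) and ZNF331 (chr19:53554363-53554662, plus strand, 34 CG) are shown because they belong to a run of neighbouring members that were all lower in U87MG.
ZNF415: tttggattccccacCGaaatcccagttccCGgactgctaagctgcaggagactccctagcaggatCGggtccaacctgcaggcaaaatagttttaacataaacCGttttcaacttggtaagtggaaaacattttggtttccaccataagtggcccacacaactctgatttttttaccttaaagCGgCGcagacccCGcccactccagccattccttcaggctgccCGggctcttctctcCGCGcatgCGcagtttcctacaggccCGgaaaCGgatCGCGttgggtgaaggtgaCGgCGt
ZNF813: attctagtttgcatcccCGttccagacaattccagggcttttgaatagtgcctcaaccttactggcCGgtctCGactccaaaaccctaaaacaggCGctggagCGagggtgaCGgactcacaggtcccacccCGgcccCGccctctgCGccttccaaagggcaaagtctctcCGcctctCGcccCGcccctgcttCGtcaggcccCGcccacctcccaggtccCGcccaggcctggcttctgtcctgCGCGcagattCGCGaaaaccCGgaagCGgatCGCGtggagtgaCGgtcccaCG
ZNF331: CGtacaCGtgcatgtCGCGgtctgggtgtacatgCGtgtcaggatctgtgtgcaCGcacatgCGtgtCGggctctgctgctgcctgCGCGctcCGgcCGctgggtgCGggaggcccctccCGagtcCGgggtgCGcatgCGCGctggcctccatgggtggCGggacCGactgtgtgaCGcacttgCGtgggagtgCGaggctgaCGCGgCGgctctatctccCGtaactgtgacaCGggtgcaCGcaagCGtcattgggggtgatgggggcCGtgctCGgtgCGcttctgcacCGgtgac
ZNF544 (chr19:58228664-58228963, plus strand, 31 CG) and ZNF329 (chr19:58150740-58151039, minus strand, 28 CG) are shown because they lie close together and differed between the lines in opposite directions.
ZNF544: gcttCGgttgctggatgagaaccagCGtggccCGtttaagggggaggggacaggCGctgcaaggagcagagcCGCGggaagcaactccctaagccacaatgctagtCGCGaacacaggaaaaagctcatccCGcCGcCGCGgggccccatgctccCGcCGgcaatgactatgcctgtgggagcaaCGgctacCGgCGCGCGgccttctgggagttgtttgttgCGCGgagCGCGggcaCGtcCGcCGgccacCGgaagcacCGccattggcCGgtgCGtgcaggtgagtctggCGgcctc
ZNF329: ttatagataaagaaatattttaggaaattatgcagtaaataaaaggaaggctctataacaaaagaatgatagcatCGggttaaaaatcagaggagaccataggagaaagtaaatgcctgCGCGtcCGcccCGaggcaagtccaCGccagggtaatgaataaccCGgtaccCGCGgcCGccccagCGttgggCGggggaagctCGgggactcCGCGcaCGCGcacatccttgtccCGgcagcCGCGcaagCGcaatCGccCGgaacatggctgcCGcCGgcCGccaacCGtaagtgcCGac
The longest stretch of identical bases shared by ZNF83 and ZNF701 was 40 bases, that shared by ZNF83 and ZNF813 was 27 bases, and that shared by ZNF329 and ZNF91 was 11 bases. Over all 16653 pairs of members with a window the median longest shared stretch was 9 bases.

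ZNF transcripts were mostly lower in U87MG than in T98G. Levels are log2 array values, given as mean ± SD (n = 3 for each line), and a difference below 0 on the log2 scale means less transcript in U87MG. A gene was called at a limma p under 0.05 after Benjamini-Hochberg adjustment over all 11963 genes with at least a 2-fold difference. On that rule 39 of 212 ZNF genes (18.4%) were lower in U87MG and 3 (1.42%) were higher, while 170 were not called. Over all genes tested the shares were 7.01% lower and 6.56% higher. Another 67 ZNF genes were lower and 13 higher at an adjusted p under 0.05 but short of 2-fold. The median difference was -0.36 over the ZNF genes and -0.01 over all genes, and 159 of the 212 (75%) had a difference below 0 against 51.4% of all genes. All 3 U87MG arrays read below all 3 T98G arrays for 122 ZNF genes (57.5%, against 27.6% of all genes) and above them for 17 (8.02%, against 24.5%). The direction was thus lopsided among the ZNF genes and nearly even among all genes, whose array medians are made alike by the normalization. Array values are relative to the other transcripts of the same cells, so less ZNF RNA per cell and fewer cells with such RNA cannot be told apart.

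**Figure D1:**
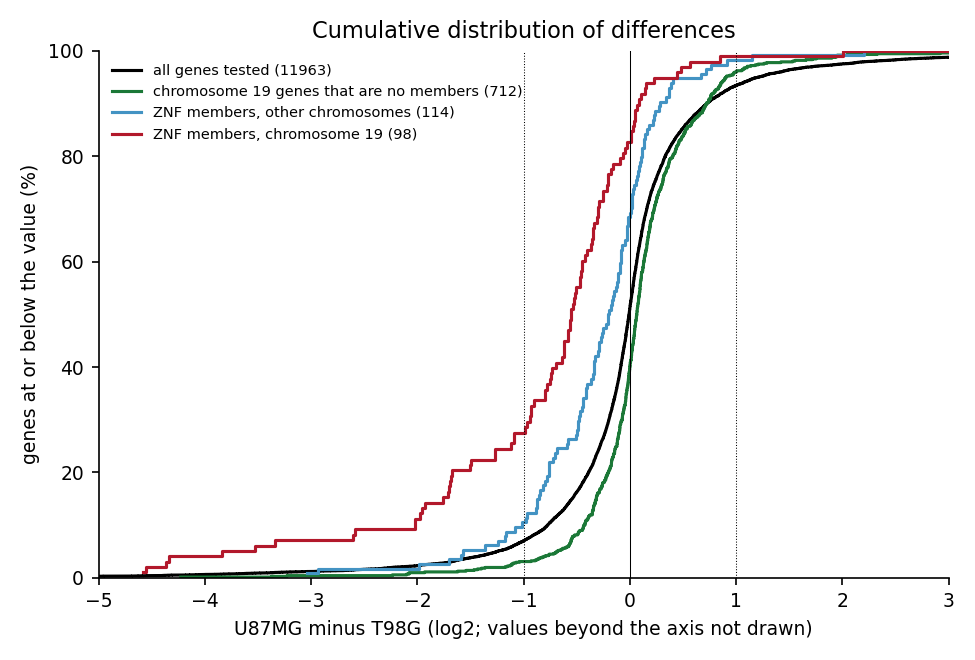
Cumulative share of genes (vertical axis, %) by log2 difference, U87MG minus T98G (horizontal axis), for ZNF members on chromosome 19, ZNF members on other chromosomes, the 712 other genes of chromosome 19 and all 11963 genes tested, with dotted lines at 2-fold. The curve of the 98 chromosome 19 members lies to the left of that of all genes, with medians of -0.56 and -0.01, and the 114 other members lie between them at -0.20.

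The chromosome 19 members carried most of the calls. Of these 98 genes, 27 (27.6%) were lower in U87MG and 1 (1.02%) was higher, with a median difference of -0.56 and 81 (82.7%) below 0. Of the 114 members on other chromosomes, 12 (10.5%) were lower and 2 (1.75%) higher, with a median of -0.20 and 78 (68.4%) below 0. The 712 measured genes of chromosome 19 that are no members had 22 (3.09%) lower, 27 (3.79%) higher and a median of 0.06. Among them, 28 lay inside the stretches of chromosome 19 that hold the members. Of these 28, 4 (14.3%) were lower and 3 (10.7%) higher, with a median of -0.0011. Both shares rest on few genes and were above the 7.01% lower and 6.56% higher of all genes. Non-members were set apart by symbol alone, so zinc finger genes with other symbols can be among them. The share called lower was thus larger among the members than among the other genes of chromosome 19, a description on which no test was run. By measured means, larger differences were also mostly on chromosome 19, where 11 of the 13 members at least 4-fold lower and all 7 of the members at least 10-fold lower were found. The members at least 4-fold higher numbered 2, and none was at least 10-fold higher. Of all 11963 genes, 276 were lower and 298 higher by at least 4-fold, and 122 and 111 by at least 10-fold.

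**Figure D2:**
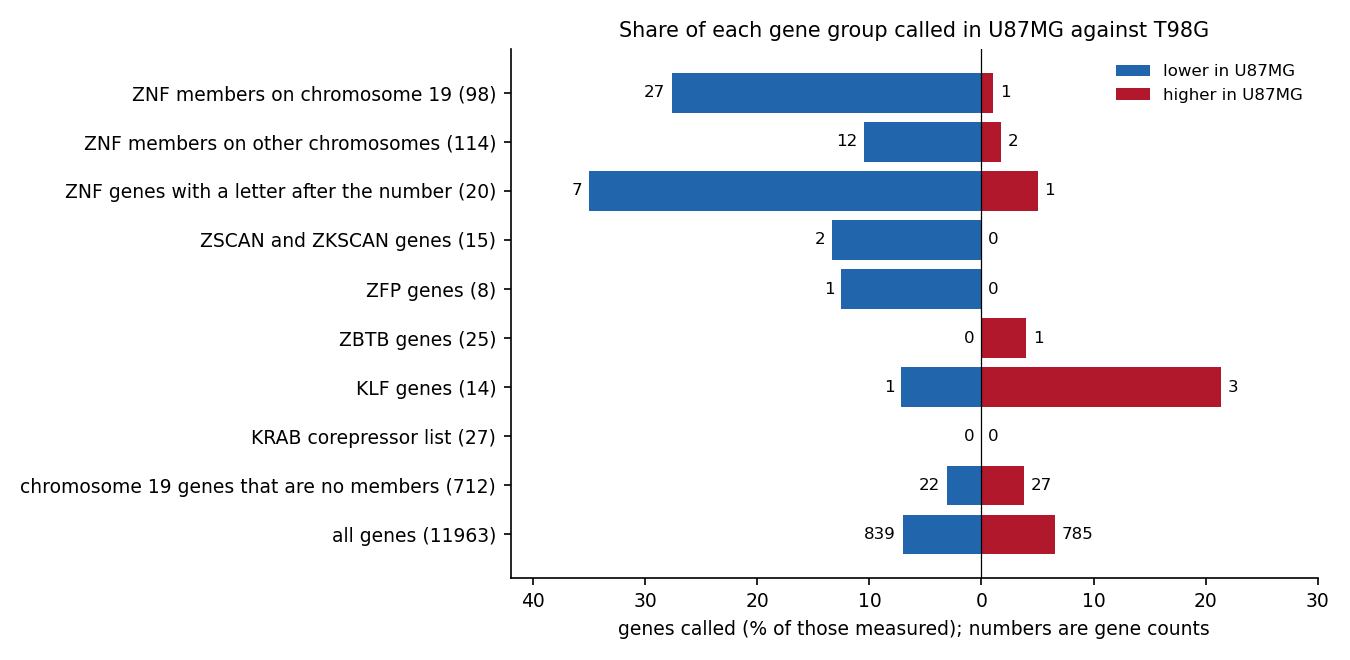
Share of each gene group called lower (blue, drawn to the left) or higher (red, drawn to the right) in U87MG against T98G, in % of the genes measured, with the number of genes beside each bar. Chromosome 19 ZNF members have 27 of 98 lower and 1 higher, against 839 lower and 785 higher of all 11963 genes.

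The shift was present on every array. The median level over the 212 members was 7.66, 7.62 and 7.72 on the T98G arrays and 7.34, 7.17 and 6.96 on the U87MG arrays. Over the chromosome 19 members it was 7.29, 7.15 and 7.30 in T98G and 6.39, 6.30 and 6.20 in U87MG. Over all genes it was 8.21, 8.20 and 8.25 in T98G and 8.23, 8.20 and 8.12 in U87MG. The member medians of the lines did not overlap, while those of all genes did. The floor of the scale was taken as 4.03, the highest reading of control probe sets with no matching human transcript. Members below it numbered 13, 13 and 16 on the T98G arrays and 30, 29 and 27 on the U87MG arrays. U87MG replicate 3 stood apart in its poly-A control probe sets, with a mean of 5.30 against 6.10 to 6.84 on the other 5 arrays. It was the lowest U87MG array for 22 of the 39 lower members (56.4%), as it was for 42% of all genes. Without that array 39 members were lower and 4 higher.

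The members furthest lower in U87MG were ZNF551, ZNF83 and ZNF91, all on chromosome 19 and all read at or near the floor in U87MG. ZNF551, a KRAB zinc finger gene near the end of the long arm, read 8.33, 7.95 and 7.93 in T98G and 3.41, 3.85 and 3.20 in U87MG. It was at least 16.4-fold lower (log2 -4.58, SE 0.18, limma adjusted p = 4.4e-08), the fold being a bound because U87MG readings under the floor were set to 4.03. ZNF83 read 8.19, 8.07 and 8.29 in T98G and 3.55, 3.65 and 3.69 in U87MG, at least 17.7-fold lower (log2 -4.55, SE 0.10, adjusted p = 3.44e-09). ZNF91 read 8.43, 8.09 and 8.23 in T98G and 3.72, 3.81 and 4.13 in U87MG, at least 18.2-fold lower (log2 -4.36, SE 0.14, adjusted p = 1.55e-08). Each of these genes was clearly read on all T98G arrays, no U87MG array of any of them came above 4.13, and the lines were separated by more than 3 units on the log2 scale.

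ZNF331, a KRAB zinc finger gene known from rearrangements in benign thyroid tumours, was the furthest lower of the members that read above the floor on every array. It read 8.97, 9.15 and 9.20 in T98G and 4.33, 4.77 and 5.21 in U87MG, 20.3-fold lower (log2 -4.34, SE 0.19, adjusted p = 1.17e-07). Its 3 U87MG arrays were spread over almost 1 log2 unit, far less than the distance to T98G. ZNF468 (7.57 ± 0.14 in T98G, 3.73 ± 0.16 in U87MG) and ZNF573 (7.32 ± 0.18 against 3.79 ± 0.09) were at least 11.6-fold and at least 9.73-fold lower. ZNF544 read 9.29, 9.22 and 8.44 in T98G and 5.50, 5.69 and 5.73 in U87MG, 10.2-fold lower (log2 -3.35, SE 0.21, adjusted p = 1.09e-06). In ZNF544 the third T98G array was lower than the other T98G arrays and still well above all U87MG arrays.

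The 10 members furthest lower also held 2 genes of other chromosomes. ZNF140, on chromosome 12, read 7.46, 7.34 and 7.46 in T98G and 4.26, 4.33 and 4.53 in U87MG, 8.23-fold lower (log2 -3.04, SE 0.11, adjusted p = 2.85e-08). ZNF239, the human MOK2 gene on chromosome 10, read 7.88, 7.59 and 7.94 in T98G and 4.79, 4.78 and 5.01 in U87MG, 7.68-fold lower (log2 -2.94, SE 0.12, adjusted p = 8.04e-08). In both genes every U87MG array was above the floor and far below T98G. The last of the 10, ZNF43, stood at 7.42 ± 0.18 in T98G and 4.81 ± 0.07 in U87MG, 6.10-fold lower.

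**Figure D3:**
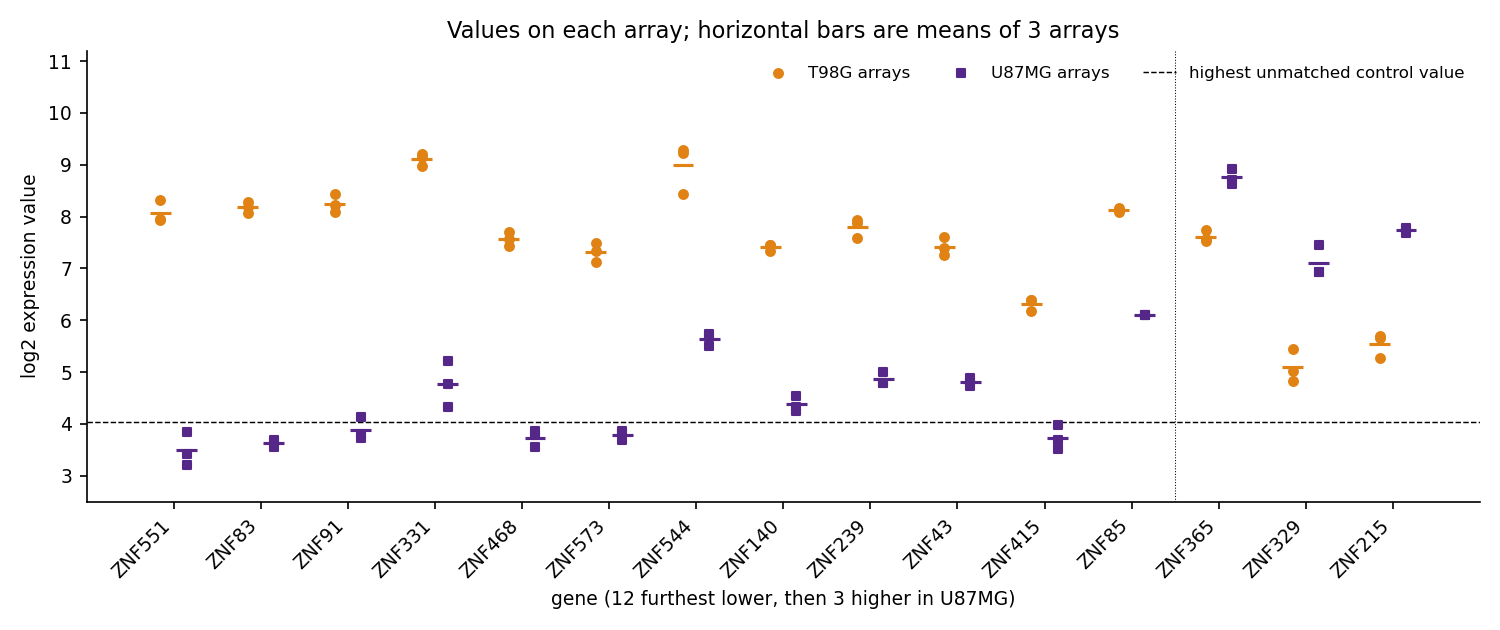
Log2 level (vertical axis) on each of the 3 T98G (circles) and 3 U87MG (squares) arrays for the 12 members furthest lower and the 3 higher in U87MG (horizontal axis), with short bars at the means and a dashed line at the floor of 4.03. The U87MG points of ZNF551 and ZNF83 lie below the floor on every array, and those of ZNF329, ZNF215 and ZNF365 lie above their T98G points.

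Only 3 members were called higher in U87MG. ZNF215, on chromosome 11 in the imprinted region tied to Beckwith-Wiedemann syndrome, read 5.69, 5.26 and 5.66 in T98G and 7.69, 7.77 and 7.76 in U87MG. It was 4.60-fold higher (log2 2.20, SE 0.13, adjusted p = 7.73e-07). Its neighbour ZNF214 had a difference of 0.92 (adjusted p = 0.0157), with all 3 T98G arrays and all but 1 of the U87MG arrays under the floor (3.59 and 3.90, against 4.79), and was not called. ZNF329, on chromosome 19, read 4.83, 5.02 and 5.44 in T98G and 7.45, 6.93 and 6.92 in U87MG, 4.01-fold higher (log2 2.00, SE 0.19, adjusted p = 2.09e-05). ZNF365, a chromosome 10 gene known for a role in genome stability, read 7.52, 7.56 and 7.73 in T98G and 8.92, 8.71 and 8.63 in U87MG, 2.22-fold higher (log2 1.15, SE 0.12, adjusted p = 3.42e-05). The arrays of the lines did not overlap for any of the 3, and all U87MG readings exceeded all T98G readings.

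In gene order along chromosome 19, ZNF415, ZNF665, ZNF813 and ZNF331 followed each other among the measured members and all 4 were lower in U87MG. These 4 genes had been named beforehand, with earlier results of these data known, so the run is a description and no independent finding. Neighbours were read from the order of genes in the RefSeq table, in which 1 protein-coding gene lies between ZNF415 and ZNF665, 9 between ZNF665 and ZNF813, and 0 between ZNF813 and ZNF331. None of those in between was measured. ZNF415 read 6.40, 6.17 and 6.38 in T98G and 3.98, 3.52 and 3.68 in U87MG, at least 4.86-fold lower (log2 -2.59, SE 0.13, adjusted p = 3.43e-07). ZNF665 read 9.38, 9.02 and 9.01 in T98G and 7.50, 7.16 and 7.62 in U87MG, 3.26-fold lower (log2 -1.71, SE 0.15, adjusted p = 1.52e-05). ZNF813 read 6.28, 6.29 and 6.29 in T98G and 4.72, 4.59 and 4.49 in U87MG, 3.21-fold lower (log2 -1.68, SE 0.10, adjusted p = 9.21e-07). ZNF415 was at the bottom of the scale in U87MG, ZNF665 was still well read there, and the lines did not overlap in any of the 4. The member just before the run, ZNF160, had 9.73 ± 0.15 in T98G and 9.26 ± 0.23 in U87MG, a difference of -0.47 (adjusted p = 0.0202) that was short of 2-fold. No other run of 3 or more consecutive measured chromosome 19 members was called in 1 direction.

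The run closes a stretch of 16 members from ZNF175 to ZNF331, where a stretch was ended by more than 10 protein-coding genes without a measured member. In it 6 members were lower, the run plus ZNF83 and ZNF468, none was higher, and the median was -0.74 with 14 of 16 below 0. The member that differed least was ZNF432 (7.93 ± 0.16 and 7.89 ± 0.04, difference -0.05, 95% interval -0.30 to 0.20). ZNF175 differed the other way, at 8.44 ± 0.03 in T98G and 9.01 ± 0.08 in U87MG (0.56, adjusted p = 0.00108), short of 2-fold. ZNF701, whose promoter shares the 40-base stretch with that of ZNF83, stood at 6.20 ± 0.25 in T98G and 5.51 ± 0.17 in U87MG, a difference of -0.70 against -4.55 for ZNF83. Differences within this stretch ran from -4.55 (ZNF83) to 0.56 (ZNF175). The 7 non-member genes measured within it had 2 lower and 1 higher.

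The stretch from ZNF14 to ZNF507 holds ZNF91 and related genes, a family that expanded in primates. Of its 16 members, 6 were lower in U87MG (ZNF14, ZNF93, ZNF85, ZNF43, ZNF91 and ZNF675) and none higher, with a median of -0.77 and 14 below 0. ZNF93, known to repress L1 retrotransposons, read 8.63, 8.61 and 8.25 in T98G and 6.81, 6.52 and 6.36 in U87MG, 3.81-fold lower (log2 -1.93, SE 0.15, adjusted p = 5.79e-06). Its second probe set gave log2 -1.79, also called lower. ZNF85 stood at 8.13 ± 0.03 against 6.10 ± 0.01, 4.08-fold lower. ZNF675 had a difference of -1.69, but all of its U87MG readings were under the floor and the bound was only at least 1.66-fold. ZNF257 read under the floor on all arrays of both lines (3.37 ± 0.21 and 3.34 ± 0.15), so that nothing can be said of its difference. None of the 5 non-member genes measured within this stretch was called, too few genes to set against the 13.6% called of all genes.

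Related copies in that stretch share promoter sequence. The window of ZNF91 shares 43 identical bases in a row with that of ZNF675 and 32 with that of ZNF85, and the windows of ZNF43 and ZNF85 share 37. Those of ZNF254 and ZNF430 share 40, and neither gene was called (-0.53 and -0.93). The windows of ZNF257 and ZNF43 share 33 bases, although ZNF43 was 6.10-fold lower and ZNF257 was not read in either line. A shared stretch of at least 20 bases occurred in 58 of 3655 pairs of chromosome 19 members (1.59%) and in 19 of the 12998 other pairs (0.146%). The windows are promoter sequence and do not show whether copies share probes, which was not tested. Of the 98 chromosome 19 members, 43 stood on probe sets ending in _x_at, _s_at or _a_at, which marks a match to several transcripts. For 20 of them the ending was _x_at. Of the 42 called members, 17 stood on such probe sets, 8 of them ending in _x_at. Without such probe sets 140 members were left, of which 22 were lower, 13 of them on chromosome 19.

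The third stretch, from ZNF576 to ZNF180, held 16 members with 5 lower (ZNF224, ZNF225, ZNF226, ZNF227 and ZNF180), none higher and a median of -0.62. ZNF226 read 9.13, 8.85 and 9.49 in T98G and 7.88, 7.44 and 7.01 in U87MG, 3.27-fold lower (log2 -1.71, SE 0.22, adjusted p = 0.000203). ZNF227 stood at 8.12 ± 0.13 in T98G and at 6.72, 6.04 and 5.71 on the U87MG arrays, 3.90-fold lower (log2 -1.96, SE 0.22, adjusted p = 7.33e-05). Both had a wide spread in U87MG, with replicate 3 lowest, and did not overlap with T98G. ZNF224, a KRAB repressor known for acting on the aldolase A gene, stood at 7.53 ± 0.17 and 6.44 ± 0.57 on the brightest of its probe sets, 2.13-fold lower (adjusted p = 0.00508), a call lost without T98G replicate 3 or U87MG replicate 3 (log2 -0.99 and -0.80). Its 3 probe sets ran from log2 -1.49 to 0.16, with 2 of them lower, and the one at 0.16 was the dimmest. ZNF576 differed least, by 0.04 (95% interval -0.17 to 0.25). Among the 5 non-member genes measured there, 1 was higher and none lower.

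The longest stretch, from ZNF787 to ZNF446 at the end of the long arm, held calls in both directions. Of its 30 members 3 (10%) were lower (ZNF551, ZNF606 and ZNF544) and 1 (3.33%) was higher (ZNF329). Over all genes 7.01% were lower and 6.56% higher, so its share called, 13.3%, was near the 13.6% of all genes. The median was -0.33 with 23 below 0. ZNF329, ZNF274 and ZNF544 follow each other with no other protein-coding gene between them, and their differences were 2.00, 0.06 and -3.35. ZNF274, which is known to bring SETDB1 to ZNF gene clusters, read 8.67, 8.40 and 8.63 in T98G and 8.91, 8.62 and 8.35 in U87MG, a difference of 0.06 with a 95% interval of -0.28 to 0.40. The arrays of the lines overlapped for ZNF274 and were fully apart, in opposite directions, for the genes on either side. The promoters of ZNF329 and ZNF544 share no more than 9 bases in a row. ZNF606 was 2.13-fold lower (6.53 ± 0.27 and 5.44 ± 0.15), with log2 -0.94 and no call without T98G replicate 3, and ZNF211 fell just outside the 2-fold limit at -0.99 (adjusted p = 0.000121).

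**Figure D4:**
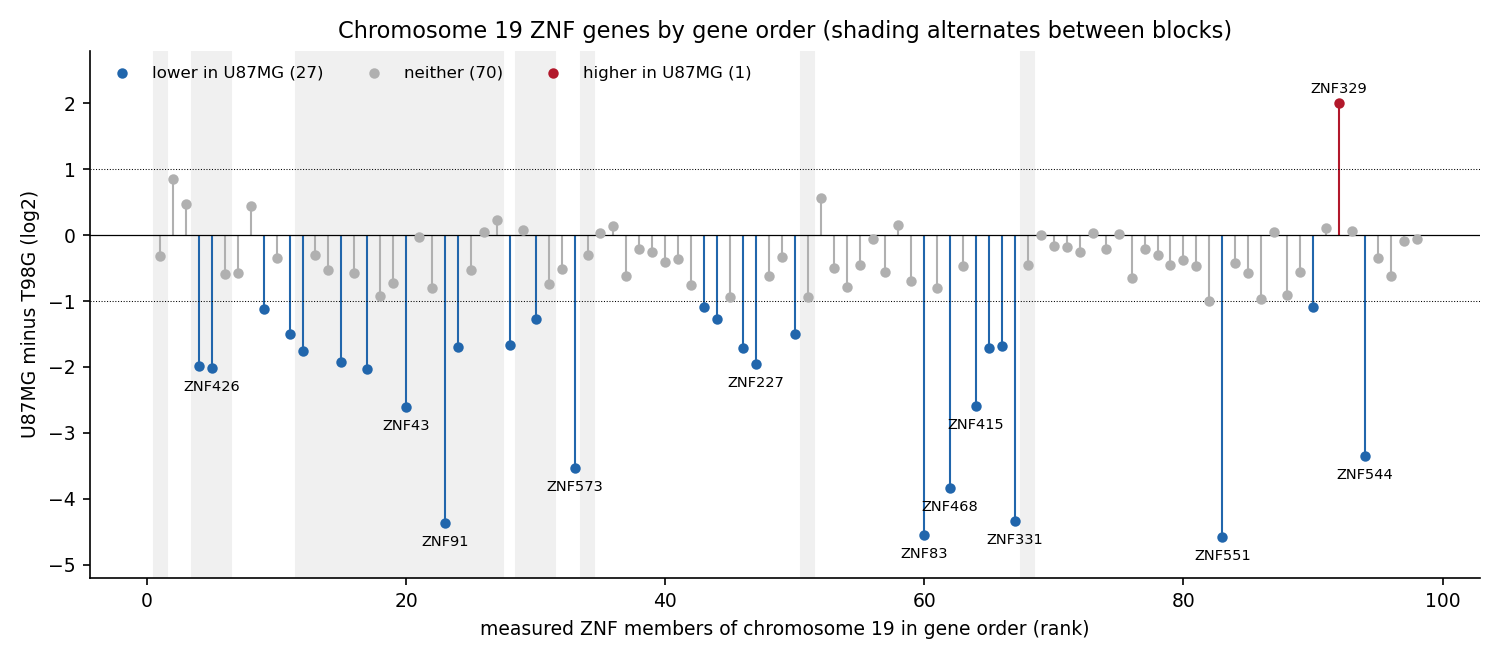
Log2 difference, U87MG minus T98G (vertical axis), of the 98 chromosome 19 members in gene order (horizontal axis, rank among measured members), with members called lower in blue, called higher in red and the others in grey, dotted lines at 2-fold and shading that alternates between stretches. Called lower members are spread over all the large stretches, the run of ZNF415, ZNF665, ZNF813 and ZNF331 lies together, and ZNF329 is the only called point above 0.

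Smaller groups on chromosome 19 held the other lower members. ZNF266 (9.50 ± 0.15 in T98G, 7.52 ± 0.16 in U87MG) and ZNF426 (6.23 ± 0.21 against 4.21 ± 0.09) were lower by 3.94-fold and 4.05-fold in a stretch of 3, whose other member ZNF562 had -0.59 (adjusted p = 0.024). ZNF44 and ZNF443 were lower by 2.17-fold and 2.83-fold in a stretch of 5 with a median of -0.57, in which ZNF442 differed least of those below 0 at -0.34 (95% interval -0.80 to 0.12). In both genes only the brightest probe set was called. The other probe set of ZNF44 gave 0.04, at a mean under the floor in both lines, and the others of ZNF443 gave -0.19 and -0.11. ZNF302, which stood alone, was 3.19-fold lower (8.98 ± 0.23 against 7.31 ± 0.50), and ZNF529 was at least 2.21-fold lower (5.23 ± 0.25 against 3.96 ± 0.20).

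Off chromosome 19, ZNF genes that lie together did not always differ together. On chromosome 12 the neighbours ZNF26, ZNF84, ZNF140, ZNF10 and ZNF268 had differences of -0.09, -1.01, -3.04, -0.76 and 0.11. ZNF10 (KOX1), the source of the KRAB domain used in many synthetic repressors, stood at 5.72 ± 0.16 in T98G and 4.96 ± 0.19 in U87MG (adjusted p = 0.00107). ZNF84 was only just past the 2-fold limit, at 2.02-fold, and fell short of it without T98G replicate 1, U87MG replicate 2 or U87MG replicate 3 (log2 -0.98, -0.96 and -0.96). On chromosome 10, ZNF32 was 2.57-fold lower beside ZNF239, and the nearby ZNF22 had -0.58. On chromosome 7, ZNF273 and ZNF107, relatives of the ZNF91 family, were lower by 3.95-fold and 2.37-fold, and ZNF117 had -0.97. None of the 7 members from ZNF771 to ZNF646 on chromosome 16 was called, nor any of the 5 from ZNF282 to ZNF862 on chromosome 7. With 13.6% of all genes called, groups this small hold few calls.

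The remaining lower members of other chromosomes have varied known roles. ZNF423, a SMAD cofactor in bone morphogenetic protein signalling, read 6.23, 5.94 and 6.16 in T98G and 4.32, 4.76 and 4.15 in U87MG, 3.25-fold lower (log2 -1.70, SE 0.16, adjusted p = 2.24e-05). ZNF516, known for driving genes of brown fat, was 2.11-fold lower (7.37 ± 0.29 and 6.30 ± 0.06), short of 2-fold without T98G replicate 3 (log2 -0.95). ZNF74, of the chromosome 22 region deleted in DiGeorge syndrome, was 3.01-fold lower (7.38 ± 0.13 and 5.79 ± 0.46). ZNF334 was at least 2.95-fold lower, ZNF394 was 2.26-fold lower and ZNF200 was 2.24-fold lower on the brighter of its probe sets, while the other gave -0.09. Several well-studied members were short of 2-fold or of the p limit. These included ZNF143, an activator that binds many promoters, at 0.16 (95% interval -0.15 to 0.48), and ZNF148, at -0.15 (-0.64 to 0.33). The oncogene candidate ZNF217 had -0.41 (-0.70 to -0.12), the BRCA1 partner ZNF350 had -0.78 (-1.10 to -0.45), and the splicing and spindle protein ZNF207 had -0.34 (-0.56 to -0.13).

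Lower calls were a larger share of the members than of all genes in the 3 ranges of brightness above 5, and only 1 fell below it. Among members whose brighter line had a mean of 5 to 7, 11 of 42 (26.2%) were lower, against 3.04% of all genes in that range. From 7 to 9 the members had 20 of 100 (20%) against 9.92%, and above 9 they had 7 of 41 (17.1%) against 9.16%. Under 5, 1 of 29 members (3.45%) was lower, against 0.316% of all genes. In all, 28 members had a U87MG mean and 12 a T98G mean under the floor, 11 of them in both lines. Of the 39 lower members, 9 had at least 1 U87MG array under the floor and 6 had all 3. Of the 53 members with several probe sets none had probe sets called in opposite directions. Of the 5 called members among them, 1 had every probe set called the same way (ZNF93) and 2 had a probe set of opposite sign (ZNF224 and ZNF44).

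Promoter windows held similar features in called and uncalled members of chromosome 19. A RefSeq window was found for 183 of the 212 members, and where a gene had several, the one with the most CG was counted. The median number of CG dinucleotides was 19 in the 26 lower chromosome 19 members with a window and 21 in the 59 chromosome 19 members that were not called, against 26 over all genes tested. On other chromosomes it was 26 in the 11 lower members and 25.5 in the 84 not called. The letters CCGGAA, the core of sites for ETS factors, were searched on both strands. They were found in 51.4% of member windows and 25.7% of the windows of all genes tested. Over all 35116 windows of that length the share was 17.2%. That share is not like for like, since it takes every window and not the one with the most CG, and CCGGAA itself holds a CG. Lower and not called chromosome 19 members held them in 57.7% and 52.5%. The letters TATAAA, also searched on both strands and not overlapping with CCGGAA in sequence, were in 3.83% of member windows and 7.63% of those of all genes tested. A match says nothing of whether a factor binds there.

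Genes that KRAB zinc finger proteins work through differed by less than 2-fold on the probe sets used. Of a list of 30 such corepressor genes, 27 were measured, and limma called 0 lower and 0 higher, against 7.01% and 6.56% of all genes, shares at which a list this short holds few calls. At an unadjusted p under 0.05 there were 16 of the 27, against 5719 of all 11963 genes. Of the 16, 9 were lower and 4 higher at an adjusted p under 0.05 but short of 2-fold, and the list's median was -0.15. TRIM28, the corepressor that binds KRAB domains, read 12.84, 13.05 and 12.68 in T98G and 12.10, 12.22 and 12.45 in U87MG, a difference of -0.60 (SE 0.13, adjusted p = 0.00512). SETDB1, which methylates histone H3 at TRIM28 targets, had -0.20 (adjusted p = 0.18). The 2 genes with the smallest p were EHMT2, a histone methyltransferase, at -0.98 (adjusted p = 0.000143) and CBX1, a heterochromatin protein, at -0.87 (adjusted p = 0.000287). On the brightest of its probe sets EHMT2 was close to the 2-fold limit, but the dimmest gave -0.38 and their mean -0.68. MPHOSPH8 (-0.95) was also close to the limit. Leaving out single arrays moved the number of lower corepressors, which was 3 without U87MG replicate 1. It was 1 without T98G replicate 1, T98G replicate 2, U87MG replicate 2 or U87MG replicate 3. EHMT2 itself was short of 2-fold without T98G replicate 2 (-0.98) or U87MG replicate 2 (-0.89). TRIM28 stayed near the top of the scale in both lines, with arrays that did not overlap.

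Other zinc finger families, grouped by symbol after values were seen, can be read against the 7.01% lower and 6.56% higher of all genes. ZNF genes with a letter after the number, which the symbol rule left out, had 7 of 20 lower and 1 higher. Their median was only -0.10, with 11 (55%) below 0 against 51.4% of all genes. The ZSCAN and ZKSCAN genes, which carry a SCAN domain, had 2 of 15 lower, none higher, and all 15 below 0 with a median of -0.58. The ZBTB genes, whose proteins pair fingers with a BTB domain, had 0 of 25 lower and 1 higher, and the KLF genes had 1 of 14 lower and 3 higher, and groups this small hold few calls at the shares of all genes.

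The label of the cells was checked against cell type markers fixed in the design. VIM (14.59 in T98G and 14.85 in U87MG) and CD44 (13.93 and 13.68) were high in both lines. S100B (4.13 and 4.23) and AQP4 (4.50 and 4.60), markers of astrocytes, were close to the floor, and GFAP read 6.42 and 6.52. The other glial and glioma markers were divided. NES (6.34 and 8.89) was called higher in U87MG, as was SLC1A3 (difference 1.04), and SOX9 (10.43 and 8.44) was called lower. SOX2 (6.02 and 6.29) and OLIG2 (5.75 and 5.72) were not called. The leukocyte marker PTPRC (4.33 and 4.55) was also close to the floor. The endothelial markers PECAM1 (5.01 and 5.08) and VWF (6.05 and 6.13) were not called. The epithelial markers went in opposite directions. KRT18, a keratin, was high in T98G and not in U87MG (12.05 and 6.57). EPCAM was lower in T98G (4.355 and 5.25, limma adjusted p = 0.00161), short of 2-fold. Of the neuronal markers SNAP25 was called higher in U87MG (8.01 and 9.61), and SYT1 (5.22 and 6.22) fell just short of 2-fold. The part of such differences in the ZNF result was not tested.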

How the data were processed

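The authors deposited 1 log2 value per probe set and array. The submitters' processing notes name RMA and limma. Their versions and settings, and the genome build, are not given in the sources used here. Array distributions are made alike by RMA, which hides any difference in total RNA, and its background step shrinks differences of dim transcripts. Values ran from 2.90 to 14.9. With 3 arrays per line, precision is limited by their number, and the median residual SD was 0.146. Arrays of the same line correlated at 0.990 or more and arrays of different lines at 0.934 to 0.938.

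Of 22277 probe sets, 62 were controls, 19064 had 1 gene in the platform annotation of 2016, 1043 had several and 2108 had none, and 13 with several symbols including a ZNF were left out. Symbols were set against the RefSeq gene table of GRCh38.p14, which gave gene order and promoter windows. Start coordinates set the gene order and decided which non-member genes lay within each stretch. The lines were compared with limma 3.58.1 (R 4.3.3), using lmFit followed by eBayes on all 11963 genes. Tests were two-sided, with Benjamini-Hochberg adjustment. Their degrees of freedom, and those of the intervals, were the 4 residual ones plus those that eBayes adds from all genes. Folds are bounds where an array of the dimmer line read under 4.03. The steps were tested on simulated data.

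The members, gene lists and tests were chosen with earlier results of these data known. Named genes were ZNF415, ZNF665, ZNF813 and ZNF331, the 10 called members furthest lower and those called higher, called chromosome 19 members and runs, the least different member of each stretch, and the corepressors with the smallest p. Further members were named for a known role, a neighbour or a sequence, after their values were seen. Counts of zinc fingers and of KRAB and SCAN domains, which need protein sequences, were not made. Alternatives were other fold limits, other choices of probe set, removal of dim or of multiply matching probe sets, limma's treat, an intensity trend, median centring, a further quantile normalization, the replicate number as a block, and leaving out each array.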

Additional observations from a re-analysis of the deposited data

How the results depend on the processing

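With 39 members lower and 3 higher in the comparison as reported, leaving out each array in turn gave 38 to 44 lower and 3 to 4 higher, with 27 to 29 lower and 1 higher on chromosome 19, 11 to 15 lower and 2 to 3 higher on other chromosomes, and 0 to 3 corepressors lower and 0 higher. A 1.5-fold limit gave 74 lower and 8 higher (chromosome 19: 45 and 2, other chromosomes: 29 and 6, corepressors: 6 and 1) against 1659 and 1512 of all genes, and no fold limit gave 106 and 16 (61 and 4, 45 and 12, 9 and 4) against 2591 and 2351. The filter on dim probe sets, which kept 112 of 212 members, gave 19 lower (14 and 5, with 0 higher on chromosome 19) against 700 of the 7220 genes kept, and all 21 called members that it kept stayed called. Without multiply matching probe sets 140 members remained, 22 were lower, 13 of them on chromosome 19, against 555 of 8369 genes, and 25 of 28 called members kept their call. Corepressors called higher numbered 1 with the dimmest probe set and 1 with the mean of probe sets, and limma's treat called 1 lower. ZNF224 and ZNF44 turned to 0.16 and 0.0399 with the dimmest probe set and without multiply matching probe sets. Repeated median centring or quantile normalization gave 38 lower, losing ZNF84, whose call was also lost without T98G replicate 1, U87MG replicate 2 or U87MG replicate 3. The dimmest probe set and the mean of probe sets each gave 35 lower, 24 of them on chromosome 19, against 745 and 764 of all genes. ZNF200, ZNF224, ZNF44 and ZNF443 lost their calls under both. ZNF224 also lost its call under treat and without T98G replicate 3 or U87MG replicate 3. ZNF516 and ZNF606 lost theirs without T98G replicate 3. Same-numbered arrays share only a number (correlations of deviations 0.154, 0.068 and 0.045), and with the replicate number as a block 39 members were lower and 3 higher. Beyond the construction of these settings, the cause was not tested. Readings near the floor limit folds of dim members.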
